A study of Homo sapiens with 4 samples.

Results

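The 10 genes described here are AXIN2, LGR5, ASCL2, RNF43, ZNRF3, NKD1, TCF7, LEF1, SP5 and NOTUM, a set of transcriptional targets of WNT signalling listed by gene name, out of 20263 genes listed in each count table. All 10 were found in the tables by Ensembl identifier. The cells were HCT116, a human colorectal carcinoma line in long use, kept for 24 hours in 0.1% DMSO, the solvent control, or in 30 µM HJ-23, named by the submitters as a derivative of piperine, with no structure stated. There were 2 libraries per group; nothing in the labels says that they were grown separately, and the p-values then measure only the spread between these samples, which may be technical. The labels give the genotype of both groups as WT; the line is known to carry an activating mutation in CTNNB1, the gene of beta-catenin, in DMSO and HJ-23 cells alike. The treatment field of the treated samples reads HJ-25 where the titles read HJ-23, and the tables carry the letters D and C, so every direction below rests on the titles.

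In canonical WNT signalling, ligand binding to Frizzled and LRP receptors stops a destruction complex of APC, AXIN and the kinases GSK3 and CK1 from marking beta-catenin for degradation. Beta-catenin then enters the nucleus and works with DNA-binding proteins of the TCF/LEF family to switch on target genes. Many of those targets encode brakes on the pathway itself, and in the intestine others mark the crypt stem cells. Stabilised mutant beta-catenin acts downstream of the destruction complex, which is why such target genes are used as a readout of the pathway in colorectal cancer cells.

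TCF/LEF proteins recognise DNA through a core that includes the letters CTTTGAT, and RefSeq promoter windows (GRCh38.p14, 250 bases before to 50 after a start site) matched 4 of the 10 genes, with 6 windows for SP5, LEF1, TCF7 and RNF43. The windows were searched on both strands for 4 words: the word CTTTGAT, and as looser forms the words CTTTGAA, then also CTTTGTT, and last of these CTTTGTA. No matches of these words overlapped in the windows of the members. The SP5 window held 3 matches, 1 CTTTGAT and 2 CTTTGAA, at 148, 109 and 84 bases before the start site. Among all 35116 windows of 300 bases, 2.62% held CTTTGAT, 13.8% held any of the 4 words and 0.179% held at least 3 matches. SP5 and LEF1 are printed because SP5 had the most matches and was transcribed at a low level in all libraries, while LEF1 had no match and no count in any library; the capitals mark the matches, and a match is only these letters, not a measured binding site.
SP5, chr2:170715087-170715386, plus strand: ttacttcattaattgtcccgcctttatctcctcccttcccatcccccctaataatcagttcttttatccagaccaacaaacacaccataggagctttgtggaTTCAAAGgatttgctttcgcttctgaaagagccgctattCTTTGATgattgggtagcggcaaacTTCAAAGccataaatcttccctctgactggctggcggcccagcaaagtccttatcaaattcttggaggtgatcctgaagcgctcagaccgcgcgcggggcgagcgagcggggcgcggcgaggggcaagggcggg
LEF1, chr4:108166252-108166551, minus strand: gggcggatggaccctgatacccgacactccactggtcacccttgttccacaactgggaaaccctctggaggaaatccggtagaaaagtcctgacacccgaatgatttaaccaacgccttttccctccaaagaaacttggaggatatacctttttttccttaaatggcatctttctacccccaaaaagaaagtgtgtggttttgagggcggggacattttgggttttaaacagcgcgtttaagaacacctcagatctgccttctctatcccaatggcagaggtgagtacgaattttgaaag
The second of 2 TCF7 windows held 1 CTTTGTT match, at 50 bases before the start site, and the first TCF7 window and both RNF43 windows held none. RNF43, without a match, had 1407 to 1738 counts per library, so the printed windows do not stand for the set. Whether matches go with level was not tested.

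The WNT target genes showed no common direction in HJ-23-treated cells, and none was called. Of the 10 genes, 7 had enough counts to be tested, and 0 of these passed an adjusted p of 0.05 in either direction (edgeR quasi-likelihood test, Benjamini-Hochberg over all 14062 genes tested); 1, NKD1, had an unadjusted p below 0.05, and DESeq2 also called 0. Over all genes tested 0.0853% passed the adjusted threshold and 12.0% an unadjusted p of 0.05, so these counts are close to what all genes gave. Among the 7, 4 log2 fold changes were positive (51.0% of all tested genes were) and 3 negative, between -0.43 for NKD1 and 0.26 for ZNRF3, and the median of 0.042 stood beside 0.009 for all genes tested. ZNRF3 and TCF7 were higher, and NKD1 and AXIN2 lower, in each HJ-23 library than in each DMSO library. That is 2 genes each way, where 24.8% of all tested genes lay above and 21.2% below. Levels are given in CPM, the count scaled to the TMM-adjusted library size. Summed over the 10 genes, the level was 176.3 and 179.7 CPM in the DMSO libraries and 164.9 and 177.0 CPM in the HJ-23 libraries.

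**Figure D1:**
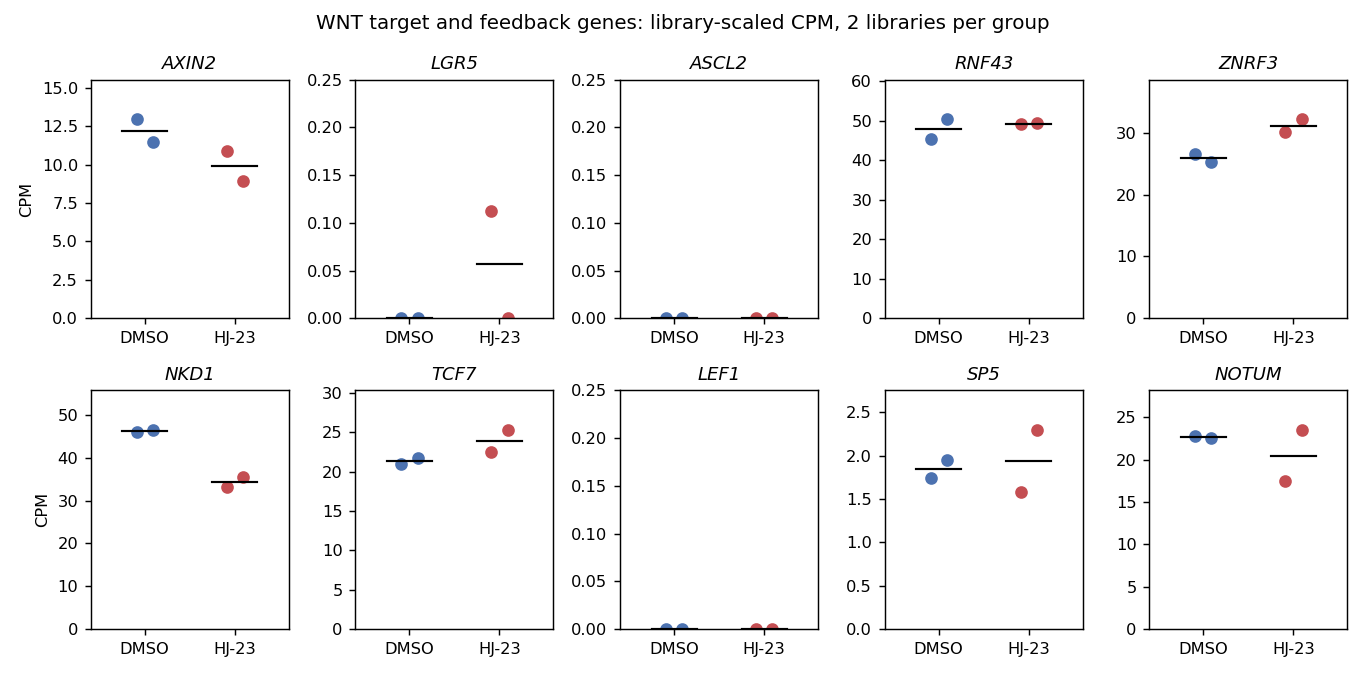
Level of each of the 10 WNT target genes in CPM (vertical axis, from 0, its range set per gene) in the 2 DMSO and 2 HJ-23 libraries; points are libraries and bars the group means. NKD1 and AXIN2 are lower and ZNRF3 and TCF7 higher in both HJ-23 libraries, while LGR5, ASCL2 and LEF1 lie at or near 0.

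AXIN2 and NKD1, the feedback inhibitors of the set that act inside the cell, had negative estimates, and neither passed the test. AXIN2 (ENSG00000168646) encodes a scaffold of the destruction complex and is the target most often read as a measure of beta-catenin activity. It was at 12.9 and 11.5 CPM in DMSO replicates 1 and 2 and at 10.9 and 8.95 CPM in HJ-23 replicates 1 and 2. The groups did not overlap, but the gap between them was smaller than the gap within either group. The log2 fold change was -0.30 (edgeR adjusted p = 0.558, SE 0.20, 95% interval -0.78 to 0.18), and the interval takes in both a clear decrease and a slight increase. With a correction for GC content and transcript length in each library the AXIN2 value was -0.37 (edgeR adjusted p = 0.360, SE 0.18). A gene that overlaps AXIN2 on the same strand in GENCODE 29, AC004805.1, had 0 counts in every library. Whether reads of AXIN2 were lost to this overlap was not measured. NKD1 (ENSG00000140807) encodes a protein that binds Dishevelled, the relay between receptor and destruction complex, and dampens the signal. Its level was 46.1 and 46.4 CPM in the DMSO libraries and 33.3 and 35.6 CPM in the HJ-23 libraries. Here the groups were separated by more than the spread inside either, with a log2 fold change of -0.43 (SE 0.15, 95% interval -0.80 to -0.05), an unadjusted p of 0.032 and an adjusted p of 0.377 (edgeR). NKD1 has the longest transcript of the 10 genes, 17105 bases, and with a correction for GC content and transcript length in each library its log2 fold change was -0.12 (edgeR adjusted p = 0.633, SE 0.12). NKD2, the relative of NKD1, was at 21.3 and 20.4 CPM in DMSO against 23.1 and 31.8 CPM (edgeR log2 fold change 0.40, adjusted p = 0.476), so the pair had estimates of opposite sign. GC content is 51.6% for NKD1 and 67.5% for NKD2, and its part in that difference was not tested beyond the correction of NKD1.

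The ubiquitin ligases that remove WNT receptors from the cell surface had positive estimates that did not pass the test either, and that of RNF43 changed sign without DMSO replicate 1. RNF43 (ENSG00000108375) and ZNRF3 (ENSG00000183579) are related membrane RING-type ligases that mark Frizzled receptors for turnover. RNF43 stood at 45.3 and 50.3 CPM in DMSO and 49.0 and 49.3 CPM in HJ-23. RNF43 overlaps SUPT4H1 in GENCODE 29, on the same strand. SUPT4H1 had 1321 to 2381 counts per library, so some reads may be shared, and how many was not measured. AC004687.2, another protein-coding gene that overlaps RNF43 on the same strand, was not among the genes counted. Both HJ-23 values of RNF43 lay between the DMSO values, and the log2 fold change was 0.042 (edgeR adjusted p = 0.929, SE 0.15, 95% interval -0.33 to 0.42). ZNRF3 was measured at 26.5 and 25.3 CPM in DMSO and 30.1 and 32.1 CPM in HJ-23. Its groups did not overlap, and the log2 fold change was 0.26 (edgeR adjusted p = 0.531, SE 0.16, 95% interval -0.12 to 0.65). NOTUM (ENSG00000185269), a secreted enzyme that strips the lipid from WNT ligands and so inactivates them, was at 22.8 and 22.6 CPM in DMSO and 17.5 and 23.5 CPM in HJ-23. The DMSO libraries were nearly equal and fell inside the HJ-23 range. The log2 fold change of -0.15 (edgeR adjusted p = 0.791, SE 0.20, 95% interval -0.63 to 0.34) thus rests on HJ-23 replicate 1 and was 0.032 without it. Correcting for GC content and length gave -0.41 for NOTUM (edgeR adjusted p = 0.201, SE 0.12). Summed over the feedback inhibitors AXIN2, NKD1, RNF43, ZNRF3 and NOTUM, the level was 153.6 and 156.0 CPM in DMSO and 140.7 and 149.5 CPM in the HJ-23 libraries.

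**Figure D2:**
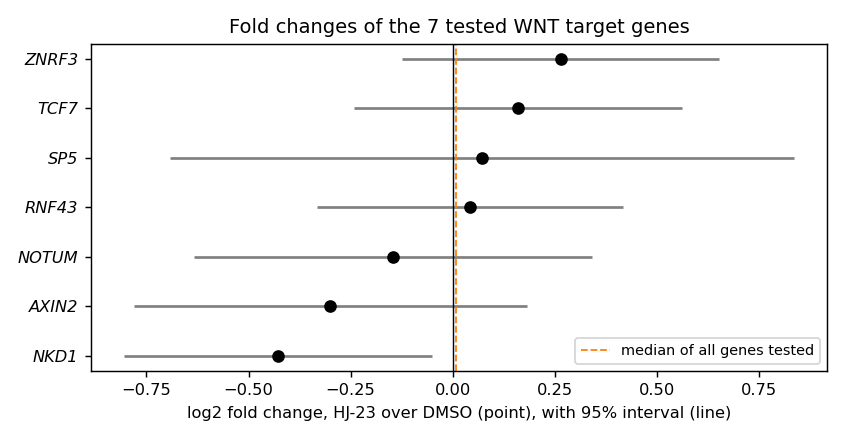
Log2 fold change of HJ-23 over DMSO (horizontal axis) for the 7 tested WNT target genes, with points for estimates, lines for 95% intervals and a dashed line for the median of all genes tested. The estimates run from -0.43 to 0.26, and the interval excludes 0 for NKD1 alone, before any adjustment for the number of genes tested.

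Among the transcription factors, TCF7 and SP5 were detected and LEF1 and ASCL2 were not. TCF7 (ENSG00000081059) encodes TCF1, a DNA-binding partner of beta-catenin whose gene is itself a WNT target. It was at 21.0 and 21.7 CPM in DMSO and 22.5 and 25.3 CPM in HJ-23, higher in both HJ-23 libraries by a log2 fold change of 0.16 (edgeR adjusted p = 0.714, SE 0.16, 95% interval -0.24 to 0.56). Without HJ-23 replicate 2 that value was 0.049, and correcting for GC content and length gave 0.075. TCF7 overlaps SKP1, on the opposite strand, in GENCODE 29. SKP1 had between 3896 and 4171 counts per library, and the strand setting of the authors' counting is not given, so reads of the shared stretch cannot be assigned with certainty.

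SP5 (ENSG00000204335), a zinc finger factor of the SP family whose promoter is printed above, was the lowest of the tested genes. It had 54 and 57 counts in DMSO and 56 and 79 counts in HJ-23, or 1.74 and 1.95 CPM against 1.58 and 2.30 CPM. The HJ-23 libraries lay on either side of the DMSO libraries, and the log2 fold change of 0.072 had the widest interval of the 7, from -0.69 to 0.84 (edgeR adjusted p = 0.940, SE 0.31). Its sign was not stable: with the GC and length correction it was -0.20, and leaving out HJ-23 replicate 2 gave -0.25.

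LEF1 (ENSG00000138795), another DNA-binding partner of beta-catenin, and ASCL2 (ENSG00000183734), the basic helix-loop-helix factor of intestinal crypt stem cells, had 0 counts in all 4 libraries. LGR5 (ENSG00000139292), the R-spondin receptor that marks those stem cells, had 4 counts in HJ-23 replicate 1 and 0 in the other 3 libraries. A count of 0 allows up to 6 counts per library, taken as 3 fragments with both mates counted, which is 0.193 and 0.205 CPM in the DMSO libraries and 0.169 and 0.174 CPM in the HJ-23 libraries. All LGR5 values were at or under that floor, so no fold change is given, and the limit covers counting error only. These 3 genes were not tested because of their low counts. OLFM4, SMOC2, PTPRO and HOPX, other markers of intestinal stem or reserve cells, also had 0 counts in all 4 libraries. Of 10 such markers listed, however, 6 were tested and had counts in every library. Their DMSO means were 95.8 CPM for BMI1, 48.6 for RGMB, 27.7 for MSI1, 26.8 for CDCA7, 13.3 for LRIG1 and 2.66 for TERT.

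Levels of different genes can be compared only per length of transcript. In CPM per kilobase of the longest annotated transcript, NOTUM was highest in DMSO at 9.73 ± 0.060 (mean ± SD, n = 2 libraries), followed by RNF43 at 8.57 ± 0.63. TCF7 at 4.0 ± 0.10 and ZNRF3 at 3.78 ± 0.13 came next, then AXIN2 at 2.86 ± 0.25, NKD1 at 2.71 ± 0.014 and SP5 at 0.907 ± 0.073. In DMSO the libraries of AXIN2 and NKD1 overlapped, and those of the other neighbours in this order did not. In HJ-23 the per-kilobase levels were 8.82 ± 0.040 for RNF43 and 8.80 ± 1.82 for NOTUM, with RNF43 inside the NOTUM range. ZNRF3 at 4.54 ± 0.21 and TCF7 at 4.47 ± 0.37 overlapped there too, while AXIN2 at 2.33 ± 0.32 lay above NKD1 at 2.01 ± 0.096 in both libraries, and SP5 was at 0.953 ± 0.25. Which transcripts the cells used is not known: with the mean transcript length, NKD1 at 7.58 CPM per kilobase in DMSO stood above AXIN2 at 6.79 and ZNRF3 at 6.27, while NOTUM at 17.7, RNF43 at 15.5 and TCF7 at 14.6 remained the 3 highest. In HJ-23 with the mean transcript length TCF7 came first at 16.3, next to NOTUM at 16.0 and RNF43 at 16.0.

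**Figure D3:**
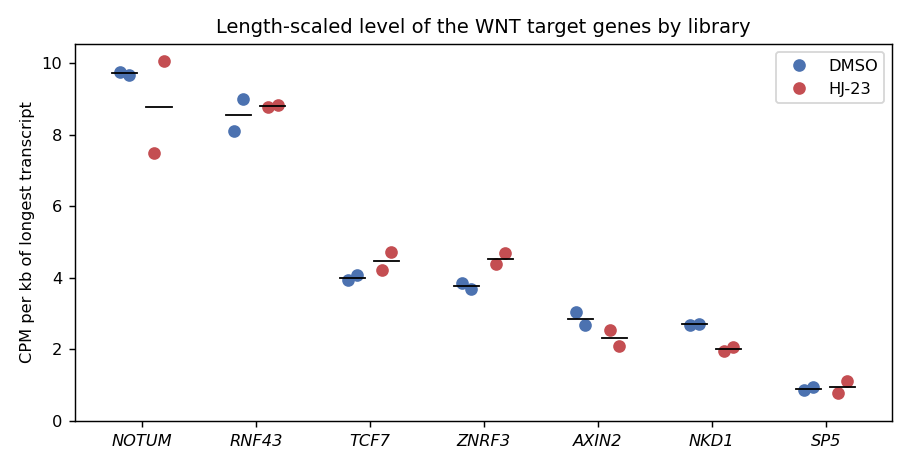
Length-scaled level, in CPM per kilobase of the longest transcript (vertical axis, from 0), of the 7 tested WNT target genes in each library, ordered by the DMSO mean; points are libraries and bars group means. With this length NOTUM and RNF43 form the highest pair and SP5 is lowest in both groups; with the mean transcript length TCF7 is highest in HJ-23.

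The rest of the WNT pathway was read from 8 lists by role, holding 122 genes, of which 94 were tested. None of the 94 passed the adjusted threshold with edgeR, where 0.0853% of all genes did. An edgeR unadjusted p below 0.05 was found for 11 higher and 4 lower genes. Over all 14062 genes tested it was found for 952 higher and 738 lower genes, or 12.0% in either direction. DESeq2 gave an adjusted p for 90 of the pathway genes and called 2 higher and 2 lower, where it called 2.31% of all 13476 genes with an adjusted p. In the lists together 51 log2 fold changes were positive and 43 negative, with a median of 0.023 beside 0.009 for all genes. The 8 list medians lay between -0.032 for the receptors and 0.091 for the intestinal stem cell markers.

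**Figure D4:**
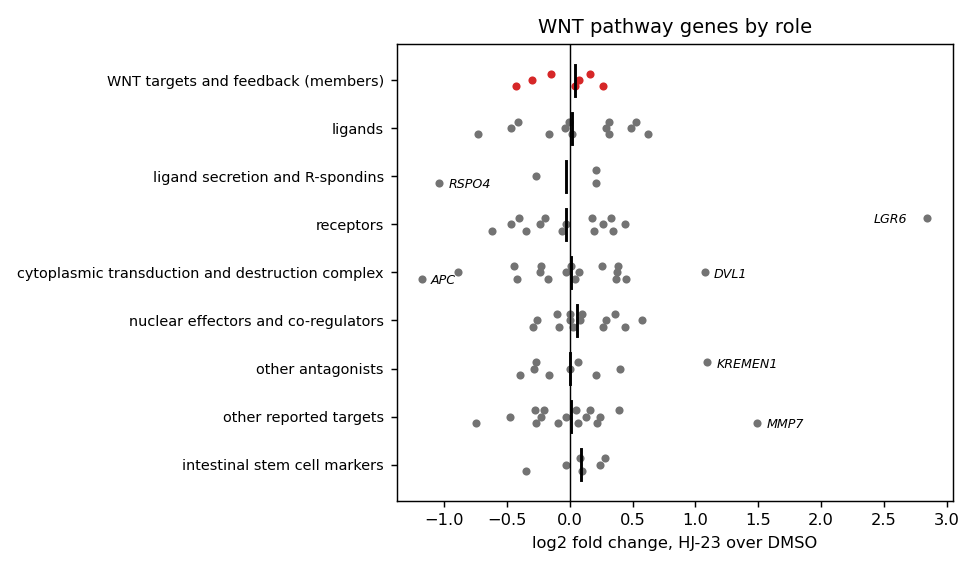
Log2 fold change of HJ-23 over DMSO (horizontal axis) for the tested genes of the WNT target set (red) and of 8 WNT pathway lists (grey); each point is a gene, each vertical bar a list median, and genes beyond 0.95 in size are named. All list medians lie near 0, and DVL1, KREMEN1, APC, RSPO4, LGR6 and MMP7 are the points farthest out.

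At the start of the pathway, 13 of 19 WNT ligand genes were tested. WNT16 had the most counts among the ligands and the smallest p, at 117.6 and 117.0 CPM in DMSO and 69.9 and 71.8 CPM in HJ-23. The libraries of each group lay close together and the groups far apart, with a log2 fold change of -0.73 (SE 0.13), but the adjusted p was 0.206 with edgeR; with DESeq2 it was 0.0025. WNT7B, with the next most counts, was at 63.8 and 56.2 CPM in DMSO and 53.5 and 66.0 CPM in HJ-23, with full overlap. WNT3A, a classical activator of the beta-catenin branch, was at 3.64 and 3.01 CPM against 4.74 and 5.52 CPM (edgeR log2 fold change 0.63, adjusted p = 0.383). PORCN and WLS, which lipidate and export the ligands, had log2 fold changes of 0.21 and -0.26, and RSPO4, an R-spondin, one of -1.04 on 11 to 29 counts per library; their edgeR adjusted p-values were 0.723, 0.550 and 0.456.

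Of 17 receptor genes, 15 were tested. LRP5 and LRP6 are the paired co-receptors of Frizzled. LRP5 was at 138.7 and 125.1 CPM in DMSO and 148.7 and 208.5 CPM in HJ-23 libraries (edgeR log2 fold change 0.44, adjusted p = 0.443), and the change was 0.15 when HJ-23 replicate 2 was left out, or 0.64 when it was replicate 1. LRP6 was at 48.1 and 63.3 CPM against 43.8 and 28.9 CPM (edgeR log2 fold change -0.61, adjusted p = 0.418). For LRP6, leaving out HJ-23 replicate 2 gave -0.37, leaving out replicate 1 gave -0.97, and correcting for GC content and length gave -0.33. The same correction gave 0.23 for LRP5. GC content is 62.8% for LRP5 and 40.2% for LRP6, and its part in their difference was not tested beyond that correction. The 2 co-receptors thus had estimates of opposite sign. Neither passed, except LRP6 in a fit that pairs the libraries crosswise by replicate number (adjusted p = 0.0258, edgeR), a pairing that the labels do not give. RYK, a receptor of the noncanonical branch, had a log2 fold change of 0.17 (adjusted p = 0.652, edgeR). LGR6, a relative of LGR5, had 0 and 6 counts in DMSO and 26 in each HJ-23 library, so its fitted log2 fold change of 2.85 rests on very few reads (adjusted p = 0.355, edgeR). It was 1.84 without DMSO replicate 1 and 7.65 without DMSO replicate 2, the latter with an adjusted p of 0.00362 (edgeR).

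Wider gaps between the groups were seen in the relay and in a co-receptor of the antagonist DKK1. KREMEN1 encodes a receptor that, with DKK proteins, removes LRP6 from the surface. It was at 55.4 and 87.2 CPM in DMSO and 146.4 and 158.6 CPM in the HJ-23 libraries, or 1.10 higher on the log2 scale (SE 0.23; the adjusted p was 0.233 with edgeR and 0.00236 with DESeq2). DVL1, a Dishevelled protein, was at 161.7 and 140.1 CPM against 262.5 and 373.2 CPM (fold change 1.07 on the log2 scale, SE 0.20; the adjusted p was 0.218 with edgeR and 0.00108 with DESeq2). For both genes the HJ-23 libraries stood clear of the DMSO libraries, with a wide gap between the HJ-23 libraries for DVL1 and between the DMSO libraries for KREMEN1. APC, the tumour suppressor scaffold of the destruction complex, was at 8.53 and 6.53 CPM in DMSO and 3.78 and 2.88 CPM in the treated libraries (fold change -1.18 on the log2 scale, SE 0.25; the adjusted p was 0.233 with edgeR and 0.0418 with DESeq2). AC008575.1, a protein-coding gene that overlaps APC on the same strand, had 7 counts in HJ-23 replicate 2 and 0 in every other library. Whether reads of APC were lost to this overlap was not measured. CSNK1A1, the gene of CK1 alpha, with the most counts among the 17 genes of this list, was at 324.1 and 305.0 CPM against 288.5 and 246.6 CPM (adjusted p = 0.539, edgeR).

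Across all genes the log2 fold change moved with the GC content of the transcript (Spearman 0.373 over 14047 genes, which are not independent replicates). DVL1 has a GC content of 67.2% and APC one of 39.6%, against 55.6% for KREMEN1 and 41.4% for WNT16. With the GC and length correction the log2 fold changes were 0.81 for DVL1, -0.88 for APC, 1.03 for KREMEN1 and -0.62 for WNT16. The part of GC content in these differences was not tested beyond that correction. Of the WNT target genes, NOTUM and SP5 have the highest GC content among those tested, 66.5% and 66.2%, and with the correction NOTUM had a log2 fold change of -0.41 (adjusted p = 0.201, edgeR).

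**Figure D5:**
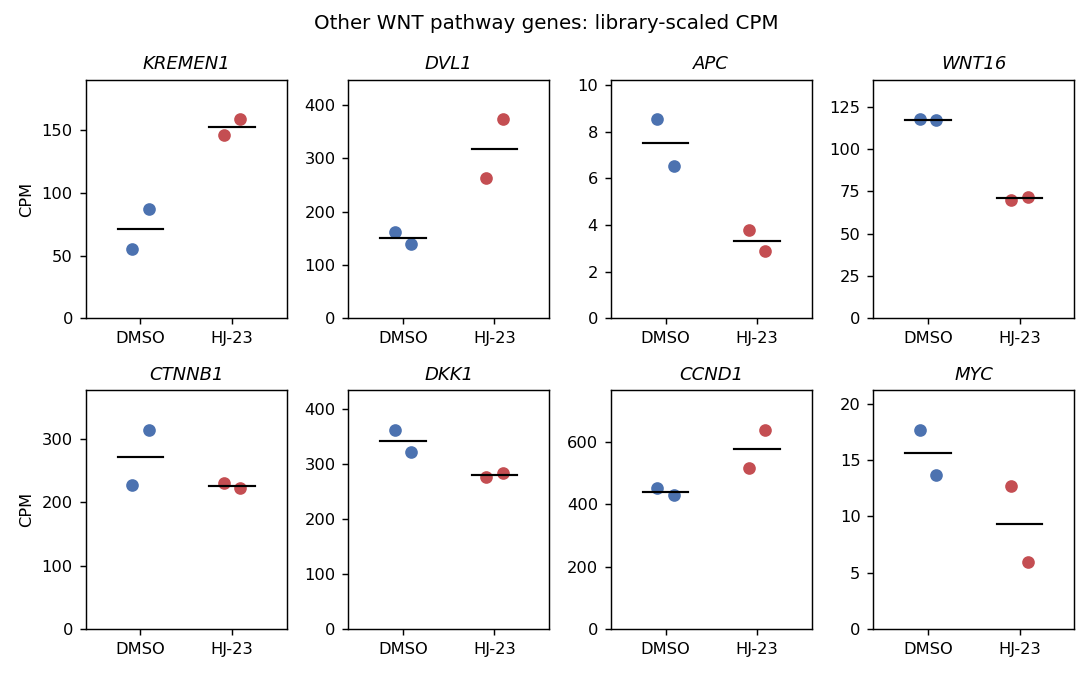
Level in CPM (vertical axis, from 0, its range set per gene) of 8 other WNT pathway genes in the 2 DMSO and 2 HJ-23 libraries; points are libraries and bars the group means. KREMEN1 and DVL1 are higher and APC and WNT16 lower in both HJ-23 libraries, and the libraries of CTNNB1 overlap.

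At the nuclear end, CTNNB1 was at 227.8 and 313.5 CPM in DMSO and 229.6 and 222.8 CPM in HJ-23. DMSO replicate 2 stood apart from the other 3 libraries, and the log2 fold change of -0.26 (adjusted p = 0.588, edgeR) was -0.034 without it and -0.47 without DMSO replicate 1. BCL9L, a coactivator that binds beta-catenin, was at 234.1 and 213.2 CPM against 299.2 and 366.0 CPM (edgeR log2 fold change 0.57, adjusted p = 0.309). TLE1, a corepressor that binds TCF proteins, was at 84.4 and 77.2 CPM against 101.6 and 117.7 CPM (edgeR log2 fold change 0.44, adjusted p = 0.362). BCL9L and TLE1, named for having the 2 smallest p-values of this list, were thus both higher in the HJ-23 libraries, neither past the threshold. Among the 14 tested genes of the list, 9 estimates were positive and 5 negative.

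DKK1, a secreted antagonist that blocks LRP5 and LRP6 and is itself a WNT target, was at 361.6 and 321.5 CPM in DMSO and 276.2 and 284.1 CPM in HJ-23 libraries (edgeR log2 fold change -0.29, adjusted p = 0.458). Of the 19 genes in the list of other antagonists 10 were not tested, among them APCDD1, SFRP2, DACT2 and SOST with 0 counts in all libraries. Other reported targets gave no common direction, with 8 positive and 8 negative estimates among 16 tested. CCND1, the gene of cyclin D1, was at 451.6 and 429.8 CPM against 515.7 and 638.8 CPM (edgeR log2 fold change 0.39, adjusted p = 0.407), a value that was 0.20 when HJ-23 replicate 2 was left out, or 0.52 when it was replicate 1. MYC was at 17.7 and 13.7 CPM against 12.7 and 5.99 CPM (edgeR log2 fold change -0.75, adjusted p = 0.469), and leaving out HJ-23 replicate 2 gave -0.33, where leaving out replicate 1 gave -1.41. SOX4, a progenitor transcription factor, was at 95.8 and 92.7 CPM against 71.2 and 64.7 CPM (edgeR log2 fold change -0.47, adjusted p = 0.320). CD44, a surface glycoprotein and the target with the most counts in the list, had a log2 fold change of -0.026, and MMP7, a matrix protease, one of 1.49 on 4 to 17 counts per library (adjusted p = 0.951 and 0.378, edgeR). Among the stem cell markers, RGMB, BMI1, CDCA7 and LRIG1 had log2 fold changes of 0.10, -0.031, 0.28 and 0.24, with adjusted p-values from 0.563 to 0.958 (edgeR).

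The genes whose levels followed AXIN2 most closely over the 4 libraries, of 10094 with a mean of at least 10 CPM, were SGSH, SLC19A2 and STIM2. Their centred log2 CPM lay at a root mean square distance of 0.012, 0.018 and 0.020 from that of AXIN2, and with 4 libraries many genes can lie this close.

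Total counts ran from 29769568 to 34831207 per library, and between 15533 and 15754 genes had a count. Of 11 markers of a colorectal epithelial line, 6 were above the floor in all libraries, namely EPCAM, KRT8, KRT18, KRT19, CDH1 and CDX2. The rest had few counts per library: 0 to 16 for KRT20, 5 to 11 for CDH17, 2 to 13 for LGALS4, 0 to 4 for VIL1 and 0 to 4 for CEACAM5. Of 21 markers of fibroblasts, immune cells and endothelium, 6 were at 0 throughout, among them DCN, LUM, PTPRC and CD3E, and 6 were above the floor in all libraries, with COL1A1 and CD68 carrying most of the counts. Summed, these 21 were at 98.7 to 107.0 CPM in DMSO and 99.1 to 114.2 CPM in HJ-23, and none of the tested markers was called with edgeR. In bulk RNA fewer cells of a kind and less RNA per cell cannot be told apart.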

How the data were processed

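Total RNA of HCT116 cells was sequenced in 4 libraries, grouped by their titles. The authors deposited 1 table of raw gene counts per library, whole numbers without normalization, as the values show. Per the submitters' processing notes, FastQC, Trimmomatic, HISAT2, bedtools and RSEM were used, with no version or role named; the build and the strand setting were not stated in any source used here. Genes therefore carry no coordinates. Among counts of 1 to 8, 69.6% to 72.3% were even, against 49.7% to 50.8% above 50, so most fragments appear to be counted by both mates, and the floor for a count of 0 was set at 6 counts.

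Counts were fitted with edgeR 4.0.16 in R 4.3.3 (TMM factors 0.983 to 1.03, filterByExpr, robust dispersions, legacy quasi-likelihood F-test, group as the only term, 2 residual degrees of freedom), with Benjamini-Hochberg adjustment over 14062 genes and a threshold of 0.05; the biological coefficient of variation was 19.6%. Standard errors were taken as the log2 fold change over the square root of F, and 95% intervals use the fit's degrees of freedom. The steps were tested on simulated data. DESeq2 1.42.0, another scaling, other filters, a replicate block, a GC and length correction (smooth offsets, mgcv 1.9.3) and leaving out each library were alternatives. Transcript lengths and GC content came from GENCODE 29, symbols from a gene name table and promoters from RefSeq. Named pathway genes were, per list, those past the threshold, the 2 with the smallest p and the 2 with the highest level, plus CTNNB1, APC, DKK1, CCND1 and MYC, and the 3 genes nearest to AXIN2; other genes were named after their values were seen. The members and lists were chosen with earlier results of these data known.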

Additional observations from a re-analysis of the deposited data

How the results depend on the processing

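For the 7 tested WNT target genes, 77 of 83 alternative estimates kept their direction and stayed on the same side of the threshold, and the smallest adjusted p in any alternative was 0.0989 (NKD1, edgeR, crossed replicate block). The other 6 changed sign. RNF43 was negative without DMSO replicate 1 (range on leaving out single libraries -0.032 to 0.095), NOTUM positive without HJ-23 replicate 1 (-0.40 to 0.032), and SP5 negative without DMSO replicate 1 or HJ-23 replicate 2 (-0.25 to 0.30), and at -0.20 with the GC and length correction, with or without the replicate block. The median of the tested target genes was -0.119 with the GC and length correction and -0.120 with the replicate block added, and ran from -0.192 to 0.095 when single libraries were left out. Among other pathway genes, estimates changed sign on leaving out single libraries for WNT7B (-0.19 to 0.12), PORCN (-0.030 to 0.39, against 0.21 with all libraries), CD44 (-0.11 to 0.0076) and BMI1 (-0.28 to 0.14); with the GC and length correction CD44 was 0.082, with or without the block, and BMI1 0.049, or 0.059 with the block. The list medians stayed between -0.243 and 0.145. The cause of these changes was not tested.

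The number of genes called over the whole table depended strongly on the setting, while 0 of the 10 target genes were called in any. Against 8 higher and 4 lower genes, DESeq2 called 161 and 150, no filter 18 and 13, a mean of at least 10 CPM 0 and 0, the GC and length correction 17 and 10, and leaving out single libraries 0 to 112 higher and 0 to 161 lower. The labels do not say that replicate numbers pair the libraries; the replicate block gave 136 higher and 158 lower genes, and with the GC and length correction 0 and 0. Same-numbered libraries deviated in opposite directions (correlation -0.182 over genes), and the crossed pairing, added after seeing the data, gave 454 and 512. KREMEN1, DVL1, APC and LGR6 passed with the replicate block, and APC, BCL9L, DVL1, LRP6, SOX4, USP34 and WNT16 with the crossed pairing. USP34 was at 65.8 and 143.9 CPM in DMSO replicates 1 and 2 and at 72.1 and 41.1 CPM in the HJ-23 libraries. Its groups overlapped, DMSO replicate 2 stood apart, and the main log2 fold change was -0.89 (edgeR adjusted p = 0.483). DVL1 and USP34 passed without DMSO replicate 1, and APC, KREMEN1 and LGR6 without DMSO replicate 2. A lone library left in a group was assumed to vary like the other group. With any of the 4 motif words instead of CTTTGAT alone, 2 target genes held a match instead of 1. Low counts limit what can be said of LGR5, ASCL2 and LEF1, all at or under the floor, and of SP5, at 54 to 79 counts per library. Whether depth or absent transcription accounts for the low counts was not tested.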
